A study of Mus musculus with 10 samples.

Results

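The C/EBP family was examined in granulocyte-macrophage progenitors (GMPs), the bone marrow cells that give rise to granulocytes and monocytes. The 6 genes *Cebpa*, *Cebpb*, *Cebpd*, *Cebpe*, *Cebpg* and *Cebpz* were chosen by name from 51717 genes for which reads were summed over transcripts, and all 6 were among the 12381 genes with enough reads to be tested. The samples were CD45.2+ GMPs sorted from male bone marrow chimeras, 5 WT samples (ROSA26 CreER+/-) and 5 recent KO samples (Mpc2fl/fl and ROSA26 CreER+/-), all on a C57Bl6/N background as labeled. Both groups carried the ubiquitous, tamoxifen-inducible CreER and ate tamoxifen chow for 2 wk before the cells were taken. The hosts were irradiated CD45.1 mice that also held CD45.1 competitor cells, no age was given, each WT sample came from 1 mouse, and each recent KO sample pooled 2 mice, so that genotype and pooling cannot be told apart.

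C/EBP proteins bind DNA as dimers through a basic leucine zipper (bZIP). C/EBPα is required to make GMPs and neutrophils at steady state, C/EBPβ takes a larger share in emergency granulopoiesis, and C/EBPε acts later, when granules are filled. C/EBPδ is induced by inflammation, C/EBPγ has no activation domain of its own and mostly acts through its partner, and *Cebpz* encodes a CCAAT-binding protein of another fold that works in ribosome assembly and chromatin. *Mpc2* encodes a subunit of the carrier that brings pyruvate into mitochondria, and the comparison asks how much of each family member's RNA was present in GMPs just after its deletion.

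The bZIP members share a DNA-binding region, where short reads could most easily be given to the wrong member. It is shown here for 4 of them. *Cebpd* is not shown, although its main transcript shared an exact run of 27 bases with that of *Cebpb*. Below is the 20-codon coding window in which these 4 proteins share the most residues, 14 of 20, within the basic region. It was read from GENCODE M21 transcripts on GRCm38, 5′ to 3′ on the coding strand, and capitals mark the 34 of 60 bases that are the same in all 4. The windows are chr7:35120262-35120321 on the + strand for *Cebpa*, chr2:167689682-167689741 on the + strand for *Cebpb*, chr14:54710719-54710778 on the − strand for *Cebpe* and chr7:35050597-35050656 on the − strand for *Cebpg*, each inside 1 coding exon.
Cebpa: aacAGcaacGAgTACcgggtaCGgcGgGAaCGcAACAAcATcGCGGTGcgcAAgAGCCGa
Cebpb: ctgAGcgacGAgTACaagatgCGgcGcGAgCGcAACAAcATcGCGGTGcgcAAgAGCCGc
Cebpe: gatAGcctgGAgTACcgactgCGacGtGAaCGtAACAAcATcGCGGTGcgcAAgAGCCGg
Cebpg: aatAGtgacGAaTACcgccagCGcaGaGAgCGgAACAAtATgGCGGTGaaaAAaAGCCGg

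Against *Cebpa*, 49 of these 60 bases were the same in *Cebpb*, 48 in *Cebpe* and 40 in *Cebpg*. Across the whole main transcripts, the longest exact run shared by any pair was 29 bases, between *Cebpa* and *Cebpb*, and the shortest of these maxima was 11 bases. The sequenced reads were longer than any of these runs, so no read of 1 member could lie wholly within a run shared with another. The members differ in composition. The main transcript was 67.2% GC for *Cebpb*, 62.6% for *Cebpa* and 61.5% for *Cebpe*, against 43.3% for *Cebpg* and 43.4% for *Cebpz*.

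The samples held 14133706 to 19745405 estimated reads in WT and 14033776 to 19658346 in recent KO. The deletion was visible in the RNA. *Mpc2* stood at 61.0, 111, 95.2, 117 and 60.9 CPM (reads scaled to library size) in WT and at 27.7, 17.1, 43.9, 37 and 35 CPM in recent KO, a log2 fold change of -1.46 (adjusted p = 0.0156 by edgeR's quasi-likelihood test, n = 5 and 5). The groups did not overlap, and the call was lost in 5 of 11 other fits. Across all genes 41 of 12381 passed an adjusted p of 0.05, which is 0.331%, and the median log2 fold change was -0.00. GMP genes were high in both groups, with *Mpo* at 51593 to 69039 CPM in WT and 31826 to 52804 CPM in recent KO, and of 8 lymphoid markers only *Nkg7* had enough reads to be tested.

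All 6 members were expressed in GMPs, and *Cebpb* and *Cebpe* were the most abundant per length. TPM, a transcript abundance corrected for length, is the scale for comparing genes. In WT GMPs the mean level was 46.4 ± 12.3 TPM for *Cebpb* (SD, n = 5), 39.9 ± 5.27 for *Cebpe*, 30.2 ± 6.22 for *Cebpz*, 12.8 ± 1.84 for *Cebpg*, 10.2 ± 1.45 for *Cebpd* and 4.60 ± 0.204 for *Cebpa*. *Cebpa*, which encodes the member required to form GMPs, thus had the lowest summed RNA level. Its 4.35 to 4.88 TPM in WT was at the 46.6th percentile of all tested genes, whereas *Cebpb* was at the 83.5th and *Cebpe* at the 81.9th.

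Not every step in this order stood clear of the spread. *Cebpz* was above *Cebpg* and *Cebpd* above *Cebpa* in all 10 samples, by 2.35-fold and 2.20-fold in WT (exact sign-flip permutation test over 10 samples, adjusted p = 0.00488 for each). With the 5 WT samples alone the same test cannot go below 0.0625, which both pairs reached. *Cebpg* was above *Cebpd* in 9 of 10 samples and 4 of 5 WT samples, by 1.25-fold in WT (exact sign-flip permutation test, adjusted p = 0.00977 over 10 samples and 0.156 over the 5 WT samples). *Cebpb* was above *Cebpe* in 8 of 10 samples but only 3 of 5 in WT, by 1.14-fold (adjusted p = 0.0244 by the same exact permutation test over all samples and 0.5 in WT). *Cebpe* and *Cebpz* did not differ beyond their spread, with *Cebpe* higher in 8 of 10 samples (adjusted p = 0.109 over 10 samples and 0.156 in WT by the same exact permutation test).

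**Figure D1:**
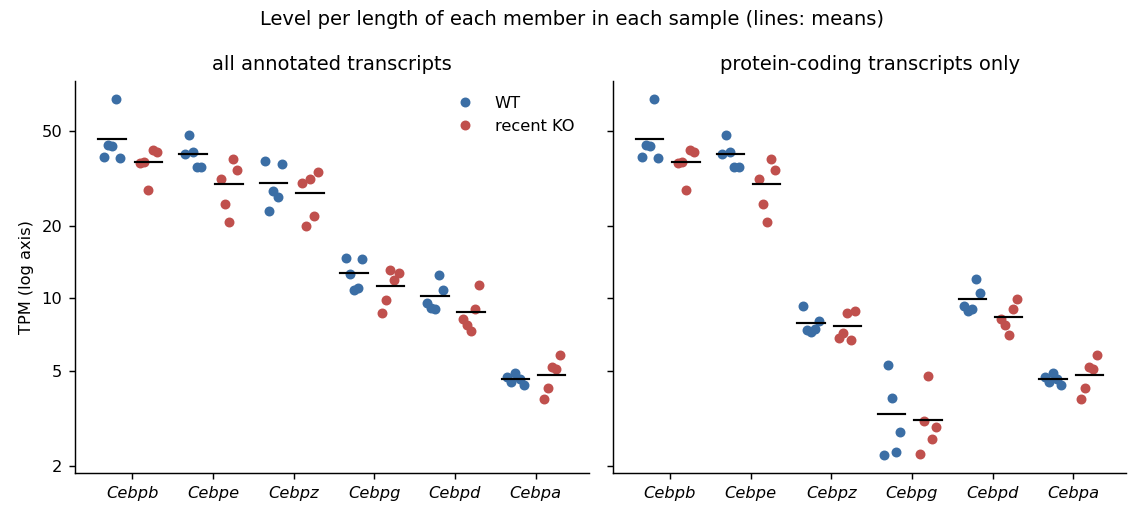
TPM on a log axis for each member in 5 WT (blue) and 5 recent KO (red) samples, with lines at the means; all annotated transcripts are summed on the left and only protein-coding transcripts on the right. *Cebpb* and *Cebpe* are highest in both, while *Cebpz* and *Cebpg* drop on the right, where *Cebpg* has the lowest mean.

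The middle of the order rested on reads assigned to transcripts annotated as noncoding. *Cebpz*-202, a processed transcript of 530 bases, held 13.5% ± 2.86 of *Cebpz* reads in WT but 21.4 of its 30.2 TPM, because few reads on a short transcript make a high TPM. The transcript *Cebpg*-203, annotated as a retained intron, was assigned 53.2% ± 8.62 of *Cebpg* reads and 9.41 of its 12.8 TPM. It spans chr7:35049896-35051505, which contains the *Cebpg* coding window shown above. The split of reads between it and the coding transcripts thus rests partly on shared sequence, and so does the coding level of *Cebpg* below. When only protein-coding transcripts were counted, *Cebpz* was at 7.89 ± 0.841 TPM and *Cebpg* at 3.28 ± 1.30 TPM in WT. *Cebpd* at 9.95 ± 1.37 TPM then exceeded *Cebpg* in 5 of 5 WT samples, and *Cebpg* was above *Cebpa* in only 1 of 10 samples. The levels of *Cebpa*, *Cebpb* and *Cebpe* did not depend on this choice, since 100% of their TPM was on coding transcripts. This count was chosen after the data were seen.

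The share of reads per transcript did not differ between the groups for any of the 8 transcripts with enough reads, of 15 annotated. The nearest was *Cebpg*-202, a coding transcript of 4709 bases, with 43.7% ± 5.59 of *Cebpg* reads in WT and 50.9% ± 2.41 in recent KO (exact permutation test, p = 0.0159, adjusted p = 0.127, n = 5 and 5). *Cebpa*-201 took 90.0% of *Cebpa* reads in WT and 81.6% in recent KO, with ranges of 79.7% to 97.0% and 62.9% to 100%. The protein isoforms that C/EBPα and C/EBPβ form by starting translation at different codons come from 1 RNA each and cannot be seen in these data.

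In recent KO GMPs 3 of the 6 members, *Cebpe*, *Cebpb* and *Cebpd*, were lower at an unadjusted p of 0.05, and none passed after adjustment over the filtered genes with edgeR or with DESeq2. With no filter on low counts, edgeR called 1 member, *Cebpe* (adjusted p = 0.0444). Of all genes tested, 5.35% were lower and 10.2% were either way at that unadjusted level. *Cebpg* and *Cebpz* were slightly lower and *Cebpa* was level. All 6 estimates lay below 0 with a median log2 fold change of -0.24, against -0.00 over all genes, but that of *Cebpa* turned above 0 when libraries were scaled by total reads alone and in both fits of log2 TPM. For none of the 6 were the groups without overlap, a pattern found in 2.43% of all genes.

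*Cebpe*, the factor of later granule formation, had the lowest estimate. Its reads were 45.2, 59.8, 53.9, 46.9 and 41.7 CPM in WT and 41.6, 27.8, 24.5, 44.8 and 40.5 CPM in recent KO. Of the recent KO samples 4 lay below every WT sample, although replicates 1 and 5 were only just below it, and replicates 2 and 3 were far below the others. The log2 fold change was -0.47 (SE 0.16, 95% CI -0.81 to -0.13), with an unadjusted p of 0.0108 and an adjusted p of 0.305 by edgeR's quasi-likelihood test. The exact permutation test of the same values gave p = 0.0159 (n = 5 and 5, two-sided), where 0.00794 is the smallest it can give. The estimate was -0.35 without recent KO replicate 3 and -0.39 without replicate 2.

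*Cebpb*, the factor of emergency granulopoiesis, was at 56.6, 69.3, 73.0, 116 and 58.4 CPM in WT and at 61.5, 53.8, 42.4, 62.2 and 61.3 CPM in recent KO. WT replicate 4 stood far above the other samples, and the remaining WT samples overlapped with recent KO. The log2 fold change was -0.41 (SE 0.17, 95% CI -0.78 to -0.03, edgeR adjusted p = 0.443), and the exact permutation test gave p = 0.103 (n = 5 and 5). Without WT replicate 4 the estimate moved to -0.20 (edgeR adjusted p = 0.732).

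*Cebpd*, the inducible member, was at 39.8, 40.3, 43.7, 59.1 and 45.6 CPM in WT and at 39.0, 32.7, 30.1, 38.5 and 42.6 CPM in recent KO. Again 4 recent KO samples lay below every WT sample, and WT replicate 4 was the highest. The log2 fold change was -0.32 (SE 0.12, 95% CI -0.58 to -0.06, edgeR adjusted p = 0.374), with p = 0.0397 by the exact permutation test (n = 5 and 5). Without WT replicate 4 it was -0.21 (edgeR adjusted p = 0.648).

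*Cebpa*, the steady-state factor, was at 12.8, 13.6, 15.7, 15.1 and 12.2 CPM in WT and at 11.2, 12, 14.4, 14.3 and 15.4 CPM in recent KO. The groups overlapped almost completely. The log2 fold change was -0.04 (SE 0.11, 95% CI -0.28 to 0.20, edgeR adjusted p = 0.937), so the interval leaves room for levels from 0.822 to 1.15 times those in WT. The estimate moved to 0.01 when WT replicate 3 was left out, and likewise for recent KO replicate 1.

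*Cebpg*, whose product lacks an activation domain, ranged from 27.4 to 32.1 CPM in WT and from 23.8 to 32 CPM in recent KO (log2 fold change -0.12, 95% CI -0.31 to 0.07, edgeR adjusted p = 0.72). *Cebpz* ranged from 42.9 to 51.3 CPM in WT and from 36.6 to 48.9 CPM in recent KO (log2 fold change -0.15, 95% CI -0.34 to 0.04, edgeR adjusted p = 0.603). Each had the smallest spread of the family in WT, a coefficient of variation of 7.0%, where that of *Cebpb* was 32.1%. In recent KO the widest spread was that of *Cebpe*, at 25.3%.

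**Figure D2:**
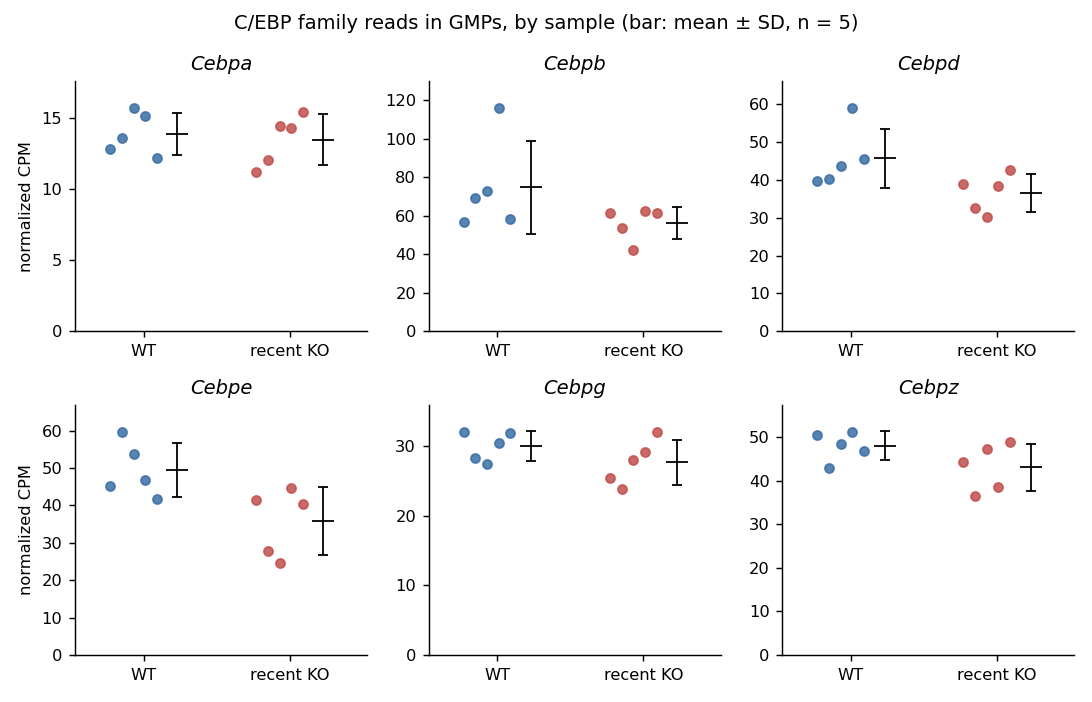
Normalized CPM of each member in each of 5 WT and 5 recent KO samples, with the mean ± SD beside the points; every axis starts at 0. *Cebpb* in WT replicate 4 stands at 116 CPM, and *Cebpe* has recent KO samples at 24.5 and 27.8 CPM below all others.

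**Figure D3:**
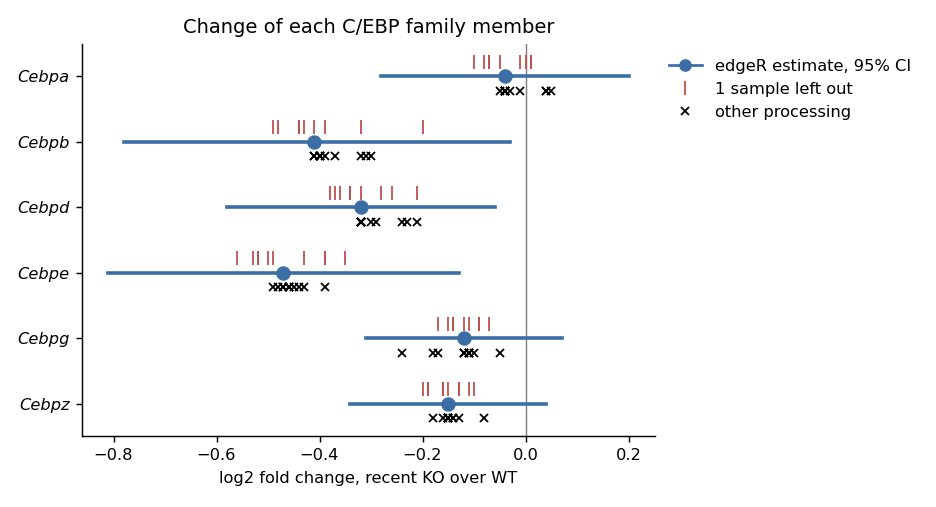
The edgeR estimate of the log2 fold change for each member, recent KO relative to WT (point, with its 95% CI), after leaving out each sample in turn (red ticks) and under other processing choices (crosses). The intervals of *Cebpb*, *Cebpd* and *Cebpe* end below 0 before adjustment over genes, and the ticks of *Cebpb* reach -0.20.

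The bZIP members dimerize with each other, so their balance within a sample was also compared on the TPM scale. Library scaling cannot shift a ratio or share within a sample, but a summed TPM depends on the other RNAs of that sample. Summed over the 5 bZIP members the level was 114 ± 11.2 TPM in WT (103 to 132) and 91.7 ± 13.6 TPM in recent KO (74.9 to 106). *Cebpa* made up 3.5% to 4.5% of this sum in WT and 4.3% to 6.9% in recent KO. *Cebpb* made up 40.3% in both, with 36.0% to 51.7% in WT and 37.9% to 44.3% in recent KO.

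Of the 4 ratios to *Cebpa* none differed between the groups after adjustment over the 4. There were 8.52, 10.8, 8.38, 7.64 and 8.08 *Cebpe* transcripts per *Cebpa* transcript in WT and 8.32, 5.86, 4.05, 7.52 and 5.93 in recent KO. Of the recent KO samples 4 were below every WT sample, and the ratio was lower by 0.49 on the log2 scale (exact permutation test, p = 0.0317, adjusted p = 0.103, n = 5 and 5). The *Cebpb* to *Cebpa* ratio was 8.26, 9.74, 8.87, 14.7 and 8.84 in WT and 9.65, 8.79, 5.50, 8.19 and 7.04 in recent KO, a log2 difference of -0.36 (exact permutation test, p = 0.103, adjusted p = 0.103, n = 5 and 5). That of *Cebpd* ranged from 1.85 to 2.70 in WT and from 1.42 to 2.16 in recent KO, and that of *Cebpg* from 2.22 to 3.34 and from 2.21 to 2.55, with an adjusted p of 0.103 by the exact permutation test for each. When only protein-coding transcripts were counted, *Cebpg* was at 3.28 TPM in WT and *Cebpa* at 4.60 TPM, and *Cebpg* was above *Cebpa* in 1 of 10 samples, so the ratio of these genes depends on which transcripts are counted. Without recent KO replicate 1, in which *Cebpa* was lowest, the *Cebpb*, *Cebpd* and *Cebpe* ratios had an adjusted p of 0.0423 by the same exact permutation test (n = 5 and 4), with log2 differences of -0.44, -0.34 and -0.60. These ratios share *Cebpa* as the denominator. With any other single sample left out, their adjusted p by this test was 0.0847 to 0.206.

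**Figure D4:**
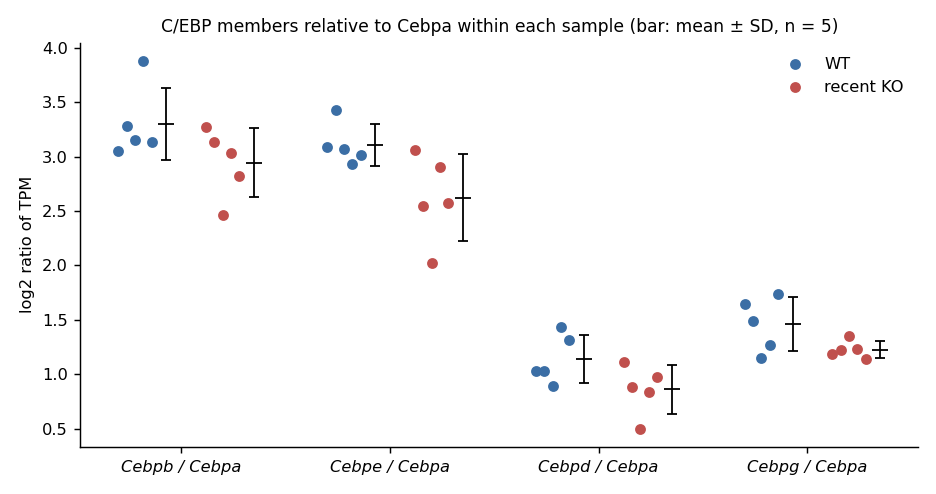
Log2 ratio of the TPM of 4 bZIP members to that of *Cebpa* within each sample, 5 WT in blue and 5 recent KO in red, with the mean ± SD. The *Cebpe* ratio averages 3.11 in WT and 2.62 in recent KO, and 1 recent KO sample is at 2.02.

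Levels of *Cebpb* and *Cebpd* varied together across samples. With the group means removed, Pearson's r between them was 0.87 over the 10 samples, which share depth and sample quality, and WT replicate 4 was the highest in both. The next closest pair was *Cebpg* and *Cebpz* at 0.55, and *Cebpa* and *Cebpe* stood at 0.17. Among 8754 other genes, those nearest to *Cebpb* by this measure were *Tmem273* (r = 0.98) and *Plod3* (0.97), and those nearest to *Cebpe* were *Smim24* (0.94) and *Adar* (0.92). *Kif11* (0.95) and *Jmjd1c* (0.94) were nearest to *Cebpa*, *Slc30a7* (0.96) and *Gm49336* (0.94) to *Cebpd*, *Snx10* (0.95) to *Cebpg*, and *Prpsap2* (0.90) and *Pdss2* (0.89) to *Cebpz*. With so many genes and 10 samples, high values of r arise readily.

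Genes that depend on C/EBP factors were read from hand-written lists, chosen with earlier results of these data known. Their counts are therefore a description only, and no set test was made. Of 11 genes that need C/EBPα in granulocyte progenitors all were tested, 10 had lower estimates in recent KO and 9 were lower at an unadjusted p of 0.05, with a median log2 fold change of -0.38. Over all genes tested, 50.4% had lower estimates, and at that unadjusted level 5.35% were lower and 10.2% either way. These shares also stand beside the counts of each list below. After adjustment none passed with edgeR on the filtered genes, 3 (*Mpo*, *Elane* and *Prtn3*) passed with edgeR and no filter on low counts, and 1 (*Mpo*) passed with DESeq2. *Elane*, neutrophil elastase, was at 18841, 26119, 28564, 29692 and 20012 CPM in WT and at 20979, 21138, 8375, 14164 and 14763 CPM in recent KO (log2 fold change -0.63, edgeR adjusted p = 0.36). *Mpo*, myeloperoxidase, had 4 recent KO samples below every WT sample (log2 fold change -0.52, edgeR adjusted p = 0.272, DESeq2 adjusted p = 0.00245). *Prtn3* and *Ctsg*, further granule proteases, were lower by 0.47 and 0.38 on the log2 scale (edgeR adjusted p = 0.354 and 0.389). The receptor genes *Csf2ra*, *Csf1r*, *Il6ra* and *Csf3r*, named after their values were seen, had log2 fold changes of -0.41, -0.41, -0.34 and -0.16. Their edgeR adjusted p-values were 0.372, 0.33, 0.478 and 0.64. *Cebpa* itself was level as given above. Recent KO replicate 3, lowest in *Cebpb*, *Cebpd* and *Cebpe*, was also lowest in *Elane* and *Mpo*. Recent KO replicate 2, next lowest in those members, was instead the highest recent KO sample in *Elane* (21138 CPM) and *Mpo* (52804 CPM).

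Genes of later granulocytes that need C/EBPε went in both directions. Of 17 listed, 16 were tested, 10 had higher and 6 lower estimates, and the median log2 fold change was 0.50. At an unadjusted p of 0.05, 5 were higher and 1 lower, where 10.2% of all genes passed either way. After adjustment none passed with edgeR on the filtered genes or with DESeq2, and 5 (*Ltf*, *Camp*, *Ngp*, *Prg2* and *S100a9*) passed with edgeR and no filter. *Ltf*, lactoferrin, was at 2.89, 5.49, 3.50, 1.09 and 2.51 CPM in WT and at 4.29, 29.5, 1.76, 8.71 and 12.6 CPM in recent KO (log2 fold change 1.84, edgeR adjusted p = 0.273). *Ngp*, another secondary granule gene, was at 10.7 to 37.7 CPM in WT and 7.62 to 155 CPM in recent KO (log2 fold change 1.53, edgeR adjusted p = 0.361). Among recent KO samples, replicate 2 was highest and replicate 3 lowest in both, and without replicate 2 the log2 fold changes were 1.13 for *Ltf* and 0.90 for *Ngp*. With log2(TPM + 1) in limma that of *Ltf* was 0.78. *Prg2*, an eosinophil granule gene, was at 13.2 to 216 CPM in WT and 11.1 to 52.4 CPM in recent KO (log2 fold change -1.54, edgeR adjusted p = 0.44), and without WT replicate 2, the highest sample, its log2 fold change was -0.83. The 3 of highest WT TPM in the list, *S100a8*, *Hp* and *Lyz2*, had log2 fold changes of -0.08, -0.39 and -0.04. Their edgeR adjusted p-values were 0.969, 0.534 and 0.947. *S100a9*, named after its values were seen, had a log2 fold change of 1.03 (edgeR adjusted p = 0.425). The sign for *S100a8* and *Lyz2* flipped when libraries were scaled by total reads alone.

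**Figure D5:**
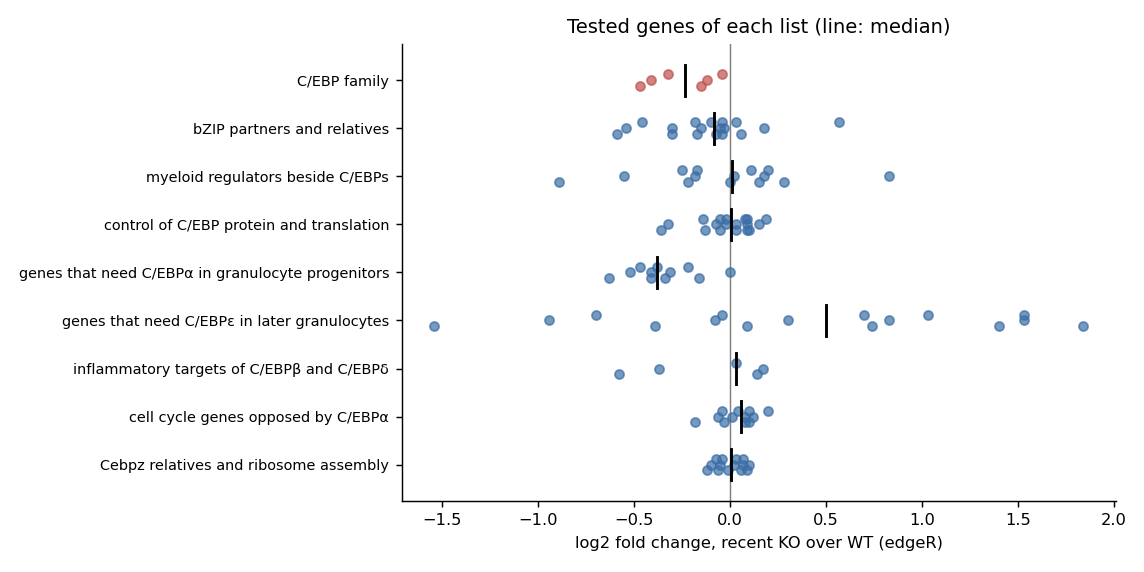
Log2 fold change in recent KO relative to WT for the tested genes of each list, 1 point per gene, with the C/EBP family in red and a line at each median. The C/EBPα-dependent genes have a median of -0.38 and the C/EBPε-dependent genes one of 0.50 with points from -1.54 to 1.84; no point passed an adjusted p of 0.05 in the edgeR fit plotted.

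Partners and upstream factors gave no gene past the threshold with DESeq2 or with edgeR on the filtered genes, while *Irf8* and *Gata2* passed with edgeR and no filter (adjusted p = 0.0157 and 0.0174). Among 22 bZIP relatives of the family, 18 were tested and 14 had lower estimates (median -0.09). At an unadjusted p of 0.05, 1 was higher and 1 lower, near the 10.2% of all genes that passed either way. *Hlf*, which also marks stem cells, was at 0.57 (edgeR adjusted p = 0.358), *Fosb* at -0.59 (edgeR adjusted p = 0.666) and *Atf5* at -0.54 (edgeR adjusted p = 0.747). The 1 gene whose groups did not overlap was *Nfil3*, named after its values were seen, with a log2 fold change of -0.30 (edgeR adjusted p = 0.333). Groups without overlap were found in 2.43% of all genes. Of 14 myeloid regulators that work beside the C/EBPs, 8 were higher and 6 lower (median 0.01). At an unadjusted p of 0.05, 1 was higher and 5 lower, where 5.35% of all genes were lower. *Irf8*, which directs monocytes, was at 158, 120, 148, 116 and 140 CPM in WT and at 105, 137, 53.6, 82.4 and 89.1 CPM in recent KO (log2 fold change -0.55, edgeR adjusted p = 0.302). *Gata2*, a gene of stem, mast and basophil lineages, was at 5.05 to 18.6 CPM in WT and 14.6 to 30.4 CPM in recent KO (log2 fold change 0.83, edgeR adjusted p = 0.325), and *Egr1* was at 0.28 (edgeR adjusted p = 0.91).

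Genes that act on C/EBP proteins and their translation were close to 0. Of 20 listed, 18 were tested, 9 were higher and 9 lower, the median was 0.00, and 1 was lower at an unadjusted p of 0.05. *Calr*, which binds the mRNAs of *Cebpa* and *Cebpb* and limits their translation, was at 3460, 3321, 3858, 4362 and 3083 CPM in WT and at 2790, 2716, 3066, 2893 and 2995 CPM in recent KO. Every recent KO sample was below every WT sample, with a log2 fold change of -0.32 (edgeR adjusted p = 0.24, DESeq2 adjusted p = 0.0339, and p = 0.00794, the smallest possible, by the exact permutation test, n = 5 and 5). Such groups without overlap made up 2.43% of all genes. *Trib1*, whose product sends C/EBPα for degradation, had -0.36 (edgeR adjusted p = 0.825), and *Celf1*, which favors the short C/EBPβ isoform, had 0.19 (edgeR adjusted p = 0.508).

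The inflammatory genes driven by C/EBPβ and C/EBPδ were low, with 5 of 15 reaching the filter for testing and 4 (*Nos2*, *Cxcl1*, *Il10* and *Csf3*) at 3 reads or fewer in every sample. None passed the threshold with edgeR or DESeq2, and 1 was lower at an unadjusted p of 0.05. *Cd14*, the endotoxin co-receptor, was at 8.27, 10.1, 7.54, 18.5 and 8.68 CPM in WT and 5.52 to 8.77 CPM in recent KO (log2 fold change -0.58, edgeR adjusted p = 0.415), with WT replicate 4 again highest. *Saa3* was at -0.37 (edgeR adjusted p = 0.817) and *Tnf* at 0.17 (edgeR adjusted p = 0.884). Of 13 cell cycle genes, which C/EBPα opposes apart from the inhibitor *Cdkn1a*, 12 were tested and 8 were higher, with a median of 0.06. None passed the threshold, and 1 was higher at an unadjusted p of 0.05. *Myc* was at 232 to 277 CPM in WT and 256 to 323 CPM in recent KO (log2 fold change 0.20, edgeR adjusted p = 0.328), *Cdkn1a* at -0.18 (edgeR adjusted p = 0.847) and *Ccnd2* at 0.12 (edgeR adjusted p = 0.805). All 14 genes listed beside *Cebpz* were tested, 7 each way, with a median of 0.01 and no gene past an unadjusted p of 0.05. They act in ribosome assembly, except for the RNA methylation genes *Mettl3* and *Mettl14*. The ends of that list were *Mettl3* at -0.12 and *Nop56* at -0.10, with *Noc4l* at 0.10 (edgeR adjusted p = 0.809, 0.549 and 0.762).

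Markers of other cell types were read in the same samples. Over all genes tested, 10.2% passed an unadjusted p of 0.05 by edgeR, 5.35% being lower. In sorted bulk RNA, fewer cells of a type and less RNA per cell cannot be told apart. Monocyte markers had lower estimates for 8 of 8 genes (6 at an unadjusted p of 0.05), with a summed level of 683 to 823 CPM in WT and 408 to 897 CPM in recent KO. Stem and multipotent progenitor markers had higher estimates for 7 of 7 tested genes, 3 of them at an unadjusted p of 0.05, at 46.3 to 51.7 CPM in WT and 57.0 to 86.3 CPM in recent KO. Late neutrophil markers, many of them also C/EBPε-dependent, were at 122 to 208 CPM and 125 to 453 CPM, with higher estimates for 7 of 8 tested, 5 at an unadjusted p of 0.05. Macrophage markers were at 17.4 to 38.0 CPM and 42.1 to 76.9 CPM, with higher estimates for 7 of 8, 6 at an unadjusted p of 0.05. For 5 of them the groups did not overlap, a pattern found in 2.43% of all genes. *C1qa*, *C1qb* and *C1qc*, 3 of the list, passed an adjusted p of 0.05 with edgeR, against 0.331% of all genes. *Fcgr3* (GMP) and *Flt3* (stem), named after their values were seen, also had no overlap (log2 fold change -0.65 and 0.98, edgeR adjusted p = 0.107 and 0.0597). Erythroid markers were at 31.5 to 69.0 CPM and 43.4 to 179 CPM, with higher estimates for 7 of 8, 4 at an unadjusted p of 0.05. *Hba-a1*, named after its values were seen, was at 1.13 to 11.5 CPM in WT. Its recent KO replicates 1 and 2 lay within that range, at 6.26 and 7.41 CPM, and replicates 3 to 5 were at 59.2, 38.8 and 33.7 CPM. Basophil and mast cell markers were at 150 to 279 CPM and 187 to 328 CPM, with higher estimates for 3 of 6 tested, 1 at an unadjusted p of 0.05. The 10 GMP markers, of which 5 are also in the C/EBPα list, had 7 lower estimates, all at an unadjusted p of 0.05. In the stem, monocyte, late neutrophil, erythroid, basophil and GMP lists edgeR on the filtered genes called no gene after adjustment. Genes of these lists that passed with edgeR and no filter, as given above, included *Mpo*, *Elane* and *Prtn3* (GMP). *Ltf*, *Camp* and *Ngp* (late neutrophil) and *Irf8* (monocyte) also did, and *Mpo* passed with DESeq2. The part of these cell types in the *Cebpb*, *Cebpd* and *Cebpe* values was not tested.

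None of the tested neighbors of the members on the chromosomes passed the threshold with edgeR. *Cebpa* and *Cebpg* start 62720 bases apart on chr7. Because the kit marks no strand, reads of a gene that overlaps a member on the other strand cannot be told apart, and such genes were *Tmem189* at *Cebpb* (312 shared exon bases, 27.7 CPM in WT, log2 fold change 0.08, edgeR adjusted p = 0.809), *Spidr* at *Cebpd* (562 bases, 19.0 CPM, -0.07, adjusted p = 0.873) and *Cebpzos* at *Cebpz* (171 bases, 25.9 CPM, 0.12, adjusted p = 0.841). *Gm45091* at *Cebpa* was at 0.32 CPM in WT, and the genes *Gm44836*, *Gm45094* and *Gm45095* at *Cebpg* were at 0.108 CPM or less. *Cebpe* overlapped no annotated gene, and of its neighbors *Slc7a8* was at 6.42 ± 1.33 CPM in WT against 8.76 ± 2.09 CPM in recent KO (log2 fold change 0.45, edgeR adjusted p = 0.421), the opposite sign to *Cebpe*. The nearest genes *Pepd*, *Mzt2* and *Ndufaf7* had log2 fold changes of -0.03, 0.00 and 0.03 (edgeR adjusted p = 0.925, 0.999 and 0.941).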

How the data were processed

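For each of 10 samples (5 WT, 5 recent KO), the authors made SMARTseq V4 libraries, sequenced paired-end reads and quantified Gencode M27 transcripts with Salmon (version 1.5.1 per the labels). Deposited for every transcript were an estimated count, with no normalization, and TPM, which the authors obtained scaled for length and to 1 total per sample. The authors' own DESeq2 table (log2 fold changes, standard errors, p-values and adjusted p-values) holds their comparison and was not used.

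Transcripts were matched by Ensembl identifier without version to GENCODE M21 (GRCm38), which gave 137161 of 140789 (97.4%), and summed to genes. Rounded estimated counts were tested with edgeR 4.0.16 (R 4.3.3, limma 3.58.1) by quasi-likelihood after TMM normalization and filterByExpr (minimum count 10), with no covariate, and p-values were adjusted by Benjamini-Hochberg over 12381 genes at 0.05. The fit was tested on simulated data first. CPM are TMM-normalized. Ratios, transcript shares (at least 10 mean reads) and single genes were compared by two-sided exact permutation tests (Python 3.11.15, scipy 1.17.1). Total reads per sample set the precision of counts only, since amplified cDNA without molecular identifiers gives no independent molecules. P-values measure the spread between these samples. No replicate pair held identical values or differed as little as sampling noise.

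Alternatives were DESeq2 1.42.0, other scalings and filters, limma on log2(TPM + 1) and log2(TPM + 0.1), a transcript length offset, a replicate block, robust dispersions and each sample left out. Named genes were the members, *Mpc2*, from each list the genes past the threshold or else the 3 with the largest absolute log2 fold change at 1 CPM or more, the 3 of highest WT TPM in the C/EBPα and C/EBPε lists, neighbors of members, and the 2 genes most like each member (5 CPM or more, prior count 2). Members and lists were chosen with earlier results of these data known. A few items are not reported here.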

Additional observations from a re-analysis of the deposited data

Results flagged for a closer look

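In each group of 5 samples the highest or lowest value was set against the others by Dixon's criterion, for 92 groups of named genes and ratios. It marked 6 values, where chance gives about 4.6. *Cebpb* was 116 CPM in WT replicate 4 against 56.6 to 73.0 CPM in the other WT samples, and the *Cebpb* to *Cebpa* ratio there was 14.7 against 8.26 to 9.74. The same sample had *Hp* at 912 CPM against 554 to 618 CPM, and *Cd14* at 18.5 CPM against 7.54 to 10.1 CPM. The *Cebpe* to *Cebpa* ratio was 10.8 in WT replicate 2 against 7.64 to 8.52. *Spidr*, which overlaps *Cebpd* on the other strand, was 14.8 CPM in recent KO replicate 1 against 18.4 to 19.2 CPM. The cause was not tested for any of them.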

How the results depend on the processing

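Of 12381 genes 41 were called, and 26 were called without WT replicate 3, 20 with the replicate block, 25 with limma on log2(TPM + 1), 24 with log2(TPM + 0.1), 156 with DESeq2 and 206 of 27909 with no filter on low counts. Leaving out 1 sample gave 25 to 91, with 25 without recent KO replicate 3 or 4 and 91 without recent KO replicate 2. The cause was not tested. No member was called by DESeq2 or any other alternative, except 1, *Cebpe*, with no filter (edgeR adjusted p = 0.0444). With no filter, edgeR also called 2 myeloid regulators (*Irf8*, *Gata2*), 3 C/EBPα-dependent genes (*Mpo*, *Elane*, *Prtn3*) and 5 C/EBPε-dependent genes (*Ltf*, *Camp*, *Ngp*, *Prg2*, *S100a9*), and DESeq2 called 1 gene, *Calr*, of those that act on C/EBP protein and 1 C/EBPα-dependent gene, *Mpo*. The log2 fold changes of *Cebpb*, *Cebpd*, *Cebpe*, *Cebpg* and *Cebpz* stayed below 0 in all 21 alternatives. *Cebpa* was 0.04 with library size only, 0.04 with log2(TPM + 1) and 0.05 with log2(TPM + 0.1), and -0.10 to 0.01 with 1 sample left out. Without 1 sample, *Cebpb* ranged from -0.49 to -0.20 and *Cebpe* from -0.56 to -0.35. *Mpc2* ranged from -1.60 to -1.31 without 1 sample, and passed the threshold neither in both limma fits, with the length offset, with robust dispersions or with the replicate block (edgeR adjusted p = 0.0577), nor without recent KO replicate 1.

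The replicate numbers did not pair the samples, since the correlation of deviations was -0.18 to 0.06 and no WT sample correlated best with its own number, so the replicate block is a value only; it changed no call for a member. Ratios to *Cebpa* ranged, with 1 sample left out, from -0.44 to -0.21 for *Cebpb*, from -0.60 to -0.34 for *Cebpe* and from -0.34 to -0.19 for *Cebpd* on the log2 scale; the lowest value of the *Cebpb* and *Cebpe* ratios, without recent KO replicate 1, passed (exact permutation test, adjusted p = 0.0423), as did that of *Cebpd*. With reads per kb of the longest transcript, *Cebpe* over *Cebpz* was 1.75 on the log2 scale, *Cebpz* over *Cebpg* 0.89 and *Cebpg* over *Cebpd* -0.92; with protein-coding transcripts only, an alternative chosen after the data were seen, *Cebpe* over *Cebpz* was 2.34 and *Cebpg* over *Cebpd* -1.67. Signs near 0 also flipped. With library size only the log2 fold change was 0.01 for *S100a8*, 0.03 for *Lyz2*, 0.00 for *Spidr* and 0.04 for *Pepd*. *Spidr* was 0.01 in each limma fit, *Pepd* 0.05 and 0.06, and *Mzt2* -0.00 with no filter and -0.01 with the replicate block. With 1 sample left out the range was -0.32 to 0.15 for *S100a8*, -0.12 to 0.06 for *Lyz2*, -0.08 to 0.06 for *Mzt2*, -0.05 to 0.21 for *Cebpzos* and -0.01 to 0.09 for *Ndufaf7*, and -0.62 to 1.59 percentage points for the share of *Cebpz*-202. With 159 to 298 reads per sample, *Cebpa* was the least deeply counted member.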
